A study of Mus musculus with 2 samples.

Results

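The tubulin isotypes described here are 9 of the 31053 genes counted in both libraries: the alpha-tubulin genes Tuba1a, Tuba1b, Tuba1c and Tuba4a and the beta-tubulin genes Tubb2a, Tubb2b, Tubb4b, Tubb5 and Tubb6. They were chosen by their counts of unique molecular identifiers (UMIs, 1 per captured RNA molecule) in lung endothelial cells of these same libraries, so their levels and differences are given as a description without a test. Microtubules are hollow filaments built from heterodimers of alpha- and beta-tubulin, and they carry cargo, shape the cell and form the mitotic spindle. Mammals encode each subunit in several genes whose proteins differ mainly in a short acidic tail, and cell types mix these isotypes differently. In endothelium, microtubules are known for their part in cell shape and in the opening and closing of the barrier between neighbouring cells.

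To follow the lung endothelium during the arrival of melanoma cells, wild-type C57BL/6 mice received an injection into the tail vein of 100 µl phosphate-buffered saline (PBS) alone (control) or with 200,000 B16-F10 cells, a mouse melanoma line that forms lung colonies (metastatic). Lungs were taken after 6 h, and cells positive for PECAM1, a surface protein of endothelium that platelets and some leukocytes also carry, were sorted with no gate against leukocytes. Each group was 1 library of cells pooled from 2 mice, and the study's methods describe the injected mice as young adult males. With 1 library per group there was no replicate check: every interval is at 95% and covers counting error only, and the treatment cannot be told apart from any other difference between the 2 pools.

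A barcode counted as a cell when it held 1000 to 5000 genes and mitochondrial transcripts made up less than 20% of its UMIs. This kept 7134 control and 6466 metastatic cells, of 67929614 and 64733724 UMIs in the libraries, with medians of 6272.5 and 6526.5 UMIs per cell. They were sorted into endothelial classes by detected markers: 5020 and 4519 general capillary-like (gCap-like) cells, 1364 and 1086 aerocyte-like (aCap-like) cells, 247 and 304 vein-like cells, and 63 and 59 artery-like cells. A class cut from detected markers is a range and not a cell type. All 4 markers held back as a check were highest in their own class for aCap-like, vein-like and artery-like cells, but only 2 of 4 for gCap-like cells, where Hmcn1 and Sema3g were higher in another class. In gCap-like cells, at least 3 endothelial markers were detected in 4964 of 5020 (control) and in 4466 of 4519 (metastatic). The libraries shared 16 passing barcodes, and leaving these out moved no value of a member beyond its interval. RNA of other cells differed between the libraries: in gCap-like cells platelet markers summed to 186 and 287 UMIs per 1000000 UMIs of the class (CPM), red cell markers to 1959 and 824 CPM, and epithelial markers to 1686 and 992 CPM in the control and the metastatic library, with all 5 genes of each list detected. Their part in the results was not tested beyond the alternatives named beside them.

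Tuba1a, Tuba1b and Tuba1c lie close together on mouse chromosome 15, at chr15:98949837-98953703 and chr15:98931425-98934565 on the minus strand and chr15:99029891-99038110 on the plus strand (GENCODE M21 annotation of GRCm38). Tubb2a at chr13:34074274-34078007 and Tubb2b at chr13:34126748-34130466 are likewise neighbours on the minus strand, and Tubb4b is at chr2:25222160-25224702 on the minus strand. Because the isotypes are alike in coding sequence, reads were checked for sharing between genes. Over the last 500 bases of the longest coding transcript, 52.2% of 89-base windows of Tuba1a, 60.2% of Tuba1b and 65.0% of Tuba1c also occurred in a transcript of another gene, each time including the other two and several pseudogenes. Tubb2a shared 26.5% of windows with Tubb2b or a pseudogene, Tubb4b shared 13.1% with pseudogenes, and Tuba4a, Tubb2b, Tubb5 and Tubb6 shared 0%. Over the last 250 bases, where reads of a 3′ library gather, 11.1% of windows of Tuba1c and 2.47% of windows of Tubb4b were shared, and 0% for the other 7 genes. How the counts of Tuba1c divide from those of Tuba1a and Tuba1b is therefore less certain than for genes with unshared ends.

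The 250 bases before the start of 2 members that differed in the metastatic library are shown, Tuba1c, which was higher there, and Tubb4b, the only major isotype that was not higher in gCap-like cells. They are RefSeq sequences of GRCm38.p6, read 5′ to 3′ on the strand of the gene, at chr15:99029641-99029890 (plus strand) and chr2:25224703-25224952 (minus strand). Capitals mark the motifs CCAAT and GGGCGG on either strand.
Tuba1c: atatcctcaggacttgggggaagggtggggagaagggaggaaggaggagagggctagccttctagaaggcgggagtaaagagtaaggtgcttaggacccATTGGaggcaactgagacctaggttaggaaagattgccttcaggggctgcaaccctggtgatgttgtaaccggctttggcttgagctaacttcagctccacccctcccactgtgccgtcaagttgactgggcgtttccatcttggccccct
Tubb4b: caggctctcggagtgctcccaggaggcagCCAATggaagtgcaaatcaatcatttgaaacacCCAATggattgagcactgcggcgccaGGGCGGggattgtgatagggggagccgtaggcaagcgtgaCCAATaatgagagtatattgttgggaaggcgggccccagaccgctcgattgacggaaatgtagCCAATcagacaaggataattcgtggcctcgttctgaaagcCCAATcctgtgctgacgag
The Tubb4b window held 5 CCAAT and 1 GGGCGG motif, and the Tuba1c window 1 CCAAT motif and 0 GGGCGG motifs. Of the 7 members found in the promoter table, 4 held CCAAT (Tuba1a, Tuba1c, Tubb4b and Tubb5), against 33.8% of all 32851 promoter windows, and 5 held GGGCGG (Tuba1a, Tuba1b, Tuba4a, Tubb2a and Tubb4b), against 32.7%. The motif TGACGTCA occurred in the Tubb2a window and in 1.55% of all windows. The windows of Tuba1a, Tuba1b, Tuba4a and Tubb5 overlapped the GENCODE gene itself, and the bases after the Tubb2a window matched no coding transcript of that gene. The starts of these windows are therefore less certain than those of Tuba1c and Tubb4b. A match is a description of letters and not of a bound factor.

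Lung endothelium expressed 5 isotypes at a high level and 4 at a low level. In control gCap-like cells Tubb5, a widely expressed beta-tubulin, had 271 CPM (266–277) and Tubb4b, a beta-tubulin also prominent in cilia, 269 CPM (263–275), levels whose intervals overlapped. Tuba1a, the alpha-tubulin best known from developing neurons, followed with 208 CPM, Tubb2a with 196 CPM and Tuba1b, the ubiquitous alpha-tubulin, with 138 CPM, and none of these intervals overlapped. Tubb2b, a relative of Tubb2a known from the developing brain, had 12.1 CPM, Tuba4a, an alpha-tubulin abundant in platelets, 9.84 CPM, Tuba1c 3.24 CPM and Tubb6, a beta-tubulin known from remodelling muscle, 2.83 CPM. The low members thus lay more than an order of magnitude under the high ones, and the intervals of Tuba1c (2.65–3.93) and Tubb6 (2.28–3.48) overlapped. These are UMIs at 3′ ends, which do not scale with gene length, and the 9 members together made up 1110.3 CPM.

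**Figure D1:**
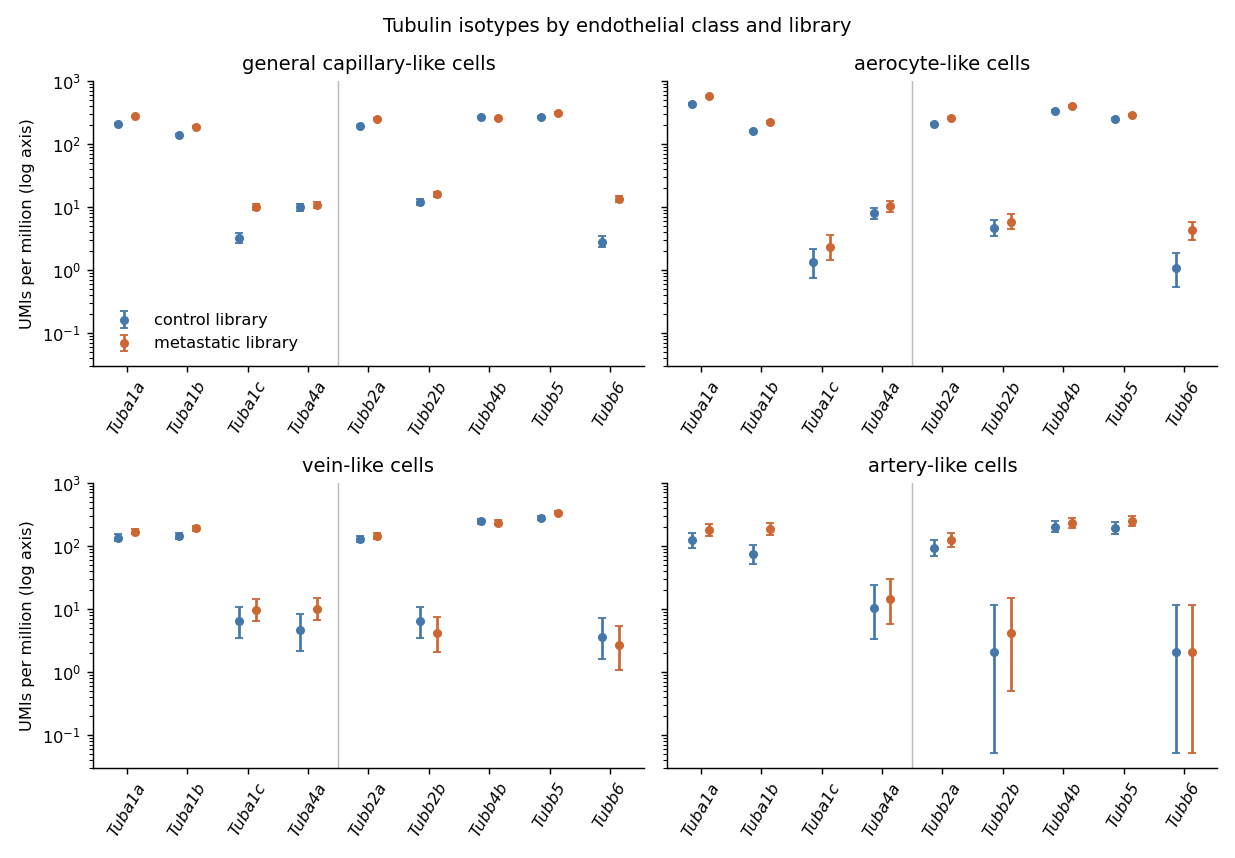
CPM (log axis) of the 9 tubulin isotypes in each endothelial class, with alpha-tubulins left and beta-tubulins right of the grey line; points are the control (blue) and metastatic (orange) library and bars are 95% counting intervals. Tuba1a, Tuba1b, Tubb2a, Tubb4b and Tubb5 stand above the other 4 members in every class, and Tuba1c, with 0 UMIs in artery-like cells, is not drawn there.

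Among the 4 endothelial classes, tubulin RNA was highest in aerocyte-like cells, aerocytes being the large capillary cells that line most of the gas exchange surface. The 9 members summed to 1402 CPM (1381–1424) in control aCap-like cells, against 1110.3 (1099–1122) in gCap-like, 950 (909–991) in vein-like and 696 (624–773) in artery-like cells, and no interval overlapped another. The order was the same in the metastatic library down to the veins and arteries, with 1761, 1333, 1097 and 991 CPM, where the intervals of the last pair, 1057–1137 and 904–1084, overlapped. In the control library Tuba1a carried most of the excess of aCap-like over gCap-like and vein-like cells, and the largest single part of that over artery-like cells. It had 434 CPM in aCap-like cells, against 208 in gCap-like, 135 in vein-like and 122 in artery-like cells. Tubb4b was also highest in control aCap-like cells, at 338 CPM against 269, 244 and 201. Tubb5 was not, with 247 CPM in aCap-like cells, 271 in gCap-like and 278 in vein-like cells. Tubb2b was highest in gCap-like cells in both libraries, at 12.1 and 15.98 CPM, against 4.68 and 5.86 CPM in aCap-like cells, though the intervals of artery-like cells, from 1 and 2 UMIs, reached into those of gCap-like cells.

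The mix of isotypes differed between the classes. Tuba1a made up 71.95% (70.9–73.0) of alpha-tubulin UMIs in control aCap-like cells, 57.9% (57.0–58.8) in gCap-like cells and 46.9% (43.0–50.9) in vein-like cells, where Tuba1b had 49.3% (45.3–53.3), an overlapping interval. In the metastatic library the Tuba1a shares of these classes were 70.9%, 56.7% and 44.4%, each within 3 percentage points of the control. In artery-like cells the Tuba1a share was 59.4% (49.2–69.1) in the control and 47.3% (40.0–54.7) in the metastatic library, on 101 and 186 alpha-tubulin UMIs, and these intervals overlapped. Among beta-tubulins, Tubb4b led in aCap-like cells with 42.4% and 42.1% in the control and the metastatic library. Tubb5 led in vein-like cells with 42.1% and 46.6%. In gCap-like cells Tubb4b and Tubb5 had 35.8% and 36.1% of beta-tubulin UMIs in the control library but 30.3% and 36.7% in the metastatic library, while Tubb2a went from 26.1% to 29.5%. Alpha-tubulin made up 32.4% (31.9–32.9) of the members' UMIs in control and 36.4% (35.9–36.8) in metastatic gCap-like cells. It was also the larger share in the metastatic library in aCap-like (43.0% and 45.9%), vein-like (30.3% and 34.5%) and artery-like cells (29.4% and 38.6%), the last with overlapping intervals. These are shares of counted RNA and not of protein.

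**Figure D2:**
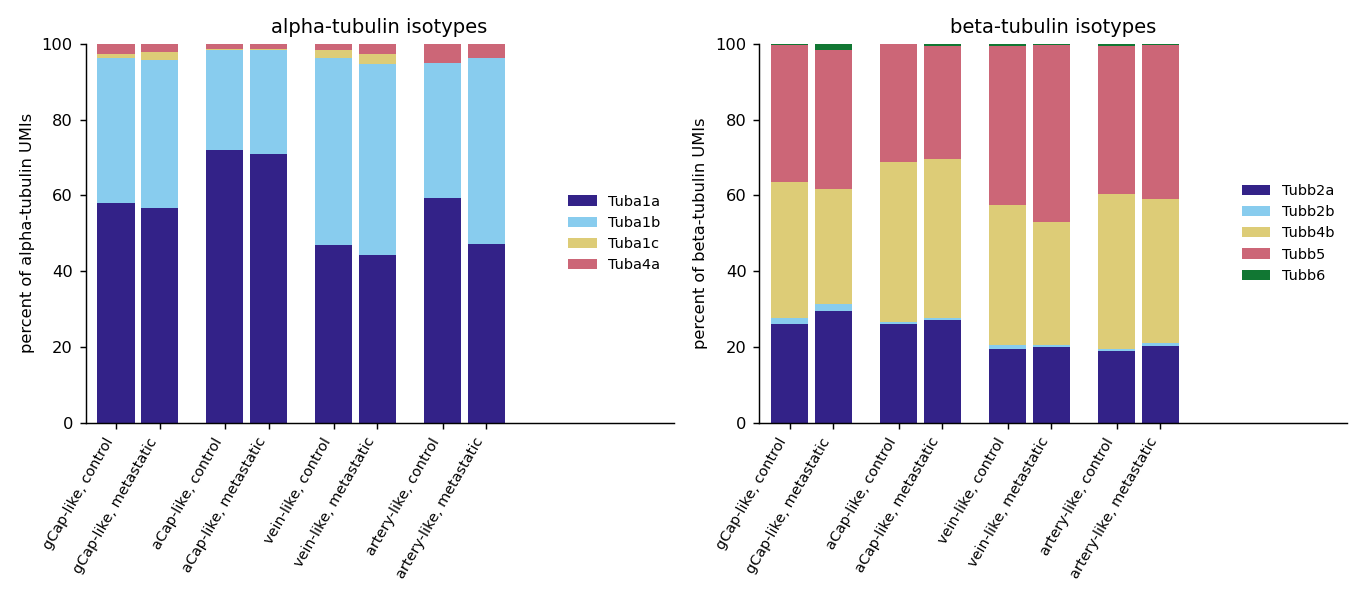
Share of each isotype (percent, stacked bars) among alpha-tubulin UMIs (left) and beta-tubulin UMIs (right) in each class and library. Tuba1a is the largest alpha share in aCap-like cells (71.95% and 70.9%) and the Tubb4b share of gCap-like cells is smaller in the metastatic (30.3%) than in the control library (35.8%).

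The comparison of the libraries asked how the isotypes differed 6 h after the injection of melanoma cells. The summed members were higher in the metastatic library in all 4 classes. In gCap-like cells they went from 1110.3 to 1333 CPM, a log2 ratio of 0.26 (0.24–0.28), and in aCap-like cells from 1402 to 1761 CPM, a log2 ratio of 0.33 (0.30–0.36). Vein-like cells had 950 and 1097 CPM, a log2 ratio of 0.21 (0.13–0.29), and artery-like cells 696 and 991 CPM, a log2 ratio of 0.51 (0.31–0.71) from 343 and 482 UMIs. RNA of other cells was far from equal in vein-like cells, where monocyte or macrophage markers summed to 34.9 and 724 CPM and epithelial markers to 124 and 3649 CPM. The vein ratio was 0.13 to 0.34 over the 17 alternatives run, which included leaving out cells with 2 markers of any other cell type. The part of this RNA was not tested further. In artery-like cells platelet markers summed to 16.2 and 154 CPM and monocyte or macrophage markers to 32.4 and 358 CPM, and the log2 ratio was 0.38 without the cells that held a platelet marker and 0.46 without those with 2 markers of any other cell type. Of the 9 members, 8 were higher in gCap-like cells, with a median log2 ratio of 0.40, while over the 11220 genes with at least 100 UMIs, which include all 9, the median was 0.02 and 54.6% were higher. Of the 5 members that passed the filter on low values used elsewhere, 4 were higher, with a median of 0.35, against 0.02 and 54.3% for the 6368 genes that passed it. The alpha-tubulins, at 359 and 485 CPM in gCap-like cells, had a log2 ratio of 0.43 (0.40–0.47), and the beta-tubulins, at 751 and 849 CPM, one of 0.18 (0.15–0.20). Subtracting an estimate of free RNA moved the log2 ratio of the summed members in gCap-like cells to 0.61. That estimate took 30.5% of control and 13.7% of metastatic gCap-like UMIs for free RNA, and 2.20% and 49.3% in vein-like cells. It rested on profiles of 18235 and 17474 UMIs, with 109 and 140 UMIs of the 5 genes that set the share and 29 and 21 of the members. It also moved the median log2 ratio of all genes tested in gCap-like cells to -0.13. Its share ranged from 2.20% to 30.5% between classes of the control library alone. Ratios after this subtraction, here and below, are therefore given as values and decide no direction or size.

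Among the alpha-tubulins, both major genes were higher in the metastatic library, with similar ratios in both capillary classes. Tuba1a had 208 (203–213) and 275 (269–281) CPM in control and metastatic gCap-like cells, a log2 ratio of 0.40, and 434 and 573 CPM in aCap-like cells, again 0.40. In vein-like cells it had 135 and 168 CPM, a log2 ratio of 0.31. Tuba1b had 138 (134–142) and 189 (184–194) CPM in gCap-like cells, a log2 ratio of 0.45, and 160.0 (153–168) and 223 (213–233) CPM in aCap-like cells, a log2 ratio of 0.48. The intervals of the libraries did not overlap for either gene in either capillary class. In artery-like cells Tuba1b had 36 UMIs in the control and 91 in the metastatic library, or 73.0 (51.1–101) and 187 (151–230) CPM. That log2 ratio of 1.36 (0.79–1.96) came from 63 and 59 cells, and became 2.00 when 3 markers were asked of an artery-like cell. Tuba1a had 60 and 88 UMIs there, a log2 ratio of 0.57 (0.08–1.07), which was 1.35 with 3 markers and 0.08 without the cells that held a platelet marker.

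Tuba1c, a minor alpha-tubulin, differed by a larger factor at a far lower level. It had 104 UMIs in control and 308 in metastatic gCap-like cells, or 3.24 (2.65–3.93) and 10.2 (9.06–11.4) CPM, a log2 ratio of 1.65 (1.33–1.99). In aCap-like cells it had 15 and 22 UMIs and in vein-like cells 14 and 26 UMIs, and both of those intervals held equal levels. It was not detected in artery-like cells, where the intervals of 0 UMIs reached 7.48 and 7.58 CPM. Tuba4a had 9.84 (8.79–10.99) and 10.8 (9.69–12.1) CPM in gCap-like cells, levels whose intervals overlapped. In vein-like cells it had 10 and 27 UMIs, a log2 ratio of 1.15 (0.06–2.37), which became -0.30 when every cell was thinned to 2000 UMIs.

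Among the beta-tubulins, Tubb2a had 196 (191–201) and 251 (245–256) CPM in gCap-like cells, a log2 ratio of 0.35, and 208 and 257 CPM in aCap-like cells, a log2 ratio of 0.31. Tubb5 had 271 and 311 CPM in gCap-like cells, a log2 ratio of 0.20, and 247 and 285 CPM in aCap-like cells, a log2 ratio of 0.21. Both were higher in the metastatic library with intervals apart. With free RNA subtracted, the Tubb5 ratio in gCap-like cells was 0.96. Tubb2b had 388 and 484 UMIs in gCap-like cells, or 12.1 and 15.98 CPM, a log2 ratio of 0.40 (0.21–0.60). Tubb4b stood apart from the other major isotypes. It had 269 (263–275) CPM in control and 258 (252–263) CPM in metastatic gCap-like cells, a log2 ratio of -0.062 (-0.11 to -0.02), but 338 (328–349) and 401 (388–414) CPM in aCap-like cells, a log2 ratio of 0.24 (0.18–0.31). With free RNA subtracted, the Tubb4b ratio in gCap-like cells was 0.33. In vein-like cells it had 244 and 233 CPM and in artery-like cells 201 and 232 CPM, and both intervals of the ratio held 0.

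Tubb6 had the largest ratio of the members in gCap-like cells, with 91 UMIs in the control and 406 in the metastatic library, or 2.83 and 13.4 CPM, a log2 ratio of 2.24 (1.91–2.59). In aCap-like cells it had 12 and 40 UMIs, or 1.06 (0.55–1.85) and 4.26 (3.04–5.80) CPM, a log2 ratio of 2.01 (1.05–3.07). In vein-like cells it had 8 and 7 UMIs, with an interval of the log2 ratio from -2.17 to 1.19. In artery-like cells it had 1 UMI in each library, too few to detect a difference of any of these sizes. With free RNA subtracted, the log2 ratio of Tubb6 in gCap-like cells was 0.68.

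**Figure D3:**
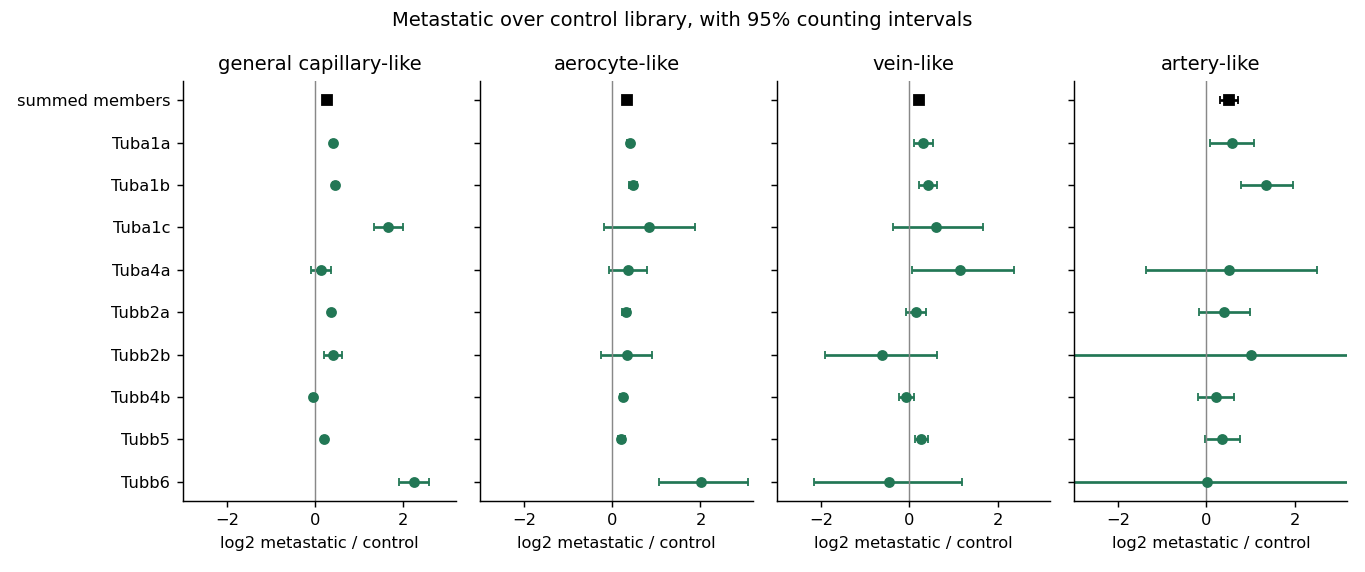
Log2 ratio of the metastatic to the control library for the summed members (squares) and each isotype (circles) in the 4 classes; bars are 95% counting intervals, cut at the axis for 2 genes in artery-like cells, and the grey line marks equal levels. Tuba1c (1.65) and Tubb6 (2.24) lie far to the right in gCap-like cells, while Tubb4b lies just left of 0 (-0.062).

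Set against all genes, the isotypes that passed the filter (a mean of 20 CPM and 50 UMIs over both libraries) were not among those with large ratios, except Tuba1b in artery-like cells. This did not hold with free RNA subtracted, where 3 of 5 were higher by 1.5-fold in gCap-like cells (Tuba1a at a log2 ratio of 0.63, Tubb2a at 0.77 and Tubb5 at 0.96), but so were 14.8% of 6176 genes, with 13.3% lower. In gCap-like cells 0 of the 5 members that passed were higher by 1.5-fold or more, where 1.46% of genes were, and 0 were lower, where 1.11% were. In aCap-like cells 0 of 5 were past 1.5-fold, against 1.27% of genes higher and 0.929% lower. In vein-like cells 0 of 5 were past it, against 3.23% higher and 1.95% lower. In artery-like cells Tuba1b was the 1 of 5 that was higher, against 6.95% of genes higher and 5.43% lower. At a threshold of 25% higher, 3 of 5 passed in gCap-like cells, Tuba1a, Tuba1b and Tubb2a, against 5.81% of genes, and 0 were lower by the same factor, against 3.69%. With at least 100 UMIs and no CPM minimum all 9 members passed, and 2 of 9, Tuba1c and Tubb6, were higher by 1.5-fold, against 3.38% of 11220 genes, and 0 of 9 lower, against 1.8%. Since the members were chosen on these counts, nothing is read from their share.

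Counted per cell at 2000 UMIs, 4 of the 5 major isotypes were detected in a larger share of metastatic gCap-like cells. The same count over all genes was not made, and the members were chosen on these counts, so nothing is read from this number. After each cell had been thinned to 2000 UMIs, which left out 73 control and 58 metastatic gCap-like cells, Tuba1a was detected in 31.4% (30.1–32.7) and 38.4% (36.9–39.8) of gCap-like cells (60.5% and 68.4% before thinning). Tuba1b was detected in 23.5% and 31.0%, Tubb2a in 29.8% and 34.3%, and Tubb5 in 40.5% and 44.7%. At 1000 UMIs the difference of Tubb5 was lost, with 24.4% (23.2–25.6) and 25.2% (23.9–26.5), while the intervals of Tuba1a, Tuba1b and Tubb2a stayed apart. Tubb4b was detected in 39.5% (38.1–40.8) and 38.4% (37.0–39.8), shares whose intervals overlapped. Cells with 3 or more UMIs of the members made up 37.0% of control and 46.3% of metastatic gCap-like cells, and cells with 0 made up 15.6% and 11.2%. In aCap-like cells the shares with 3 or more were 47.4% and 62.7%. No cell type lacks tubulin RNA altogether, so no share in cells without it can be set beside these, and the members made up 1590 and 1202 CPM of the RNA in barcodes with 11 to 50 UMIs.

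The differences of Tubb6 and Tuba1c rested largely on few cells, unlike those of the major isotypes. Tubb6 was detected in 69 of 5020 control gCap-like cells, or 1.37% (1.07–1.74), and in 148 of 4519 metastatic cells, or 3.28% (2.78–3.84). Cells with 1 Tubb6 UMI numbered 61 and 88, those with 2 numbered 6 and 14, and those with 3 or more numbered 2 and 46. The 46 metastatic cells held 290 of the 406 Tubb6 UMIs, or 71.4%. Cells with 3 or more Tuba1c UMIs numbered 4 in the control and 31 in the metastatic library. In metastatic gCap-like cells, the 10 cells with the most UMIs of a gene held 29.8% for Tubb6 and 28.2% for Tuba1c. For Tuba1a and Tubb5 they held 1.80% and 2.16%. Such a share depends on the total, and it was also 25.3% for Tuba4a, from 328 UMIs. In control gCap-like cells it was higher for Tubb6, at 35.2%, and lower for Tuba1c. These shares therefore do not show by themselves that a difference rested on few cells. The 46 cells carried endothelial RNA: all 46 had at least 3 of 4 endothelial markers, 4 had 2 or more monocyte or macrophage markers, and those markers summed to 54.3 CPM, against 241 CPM in the metastatic gCap-like cells without Tubb6. The endothelial markers summed to 7530 CPM in them against 5928 CPM. Their depth was higher, with a median of 8097.5 UMIs against 6209, and the general capillary markers summed to 1658 CPM in them against 3208 CPM.

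**Figure D4:**
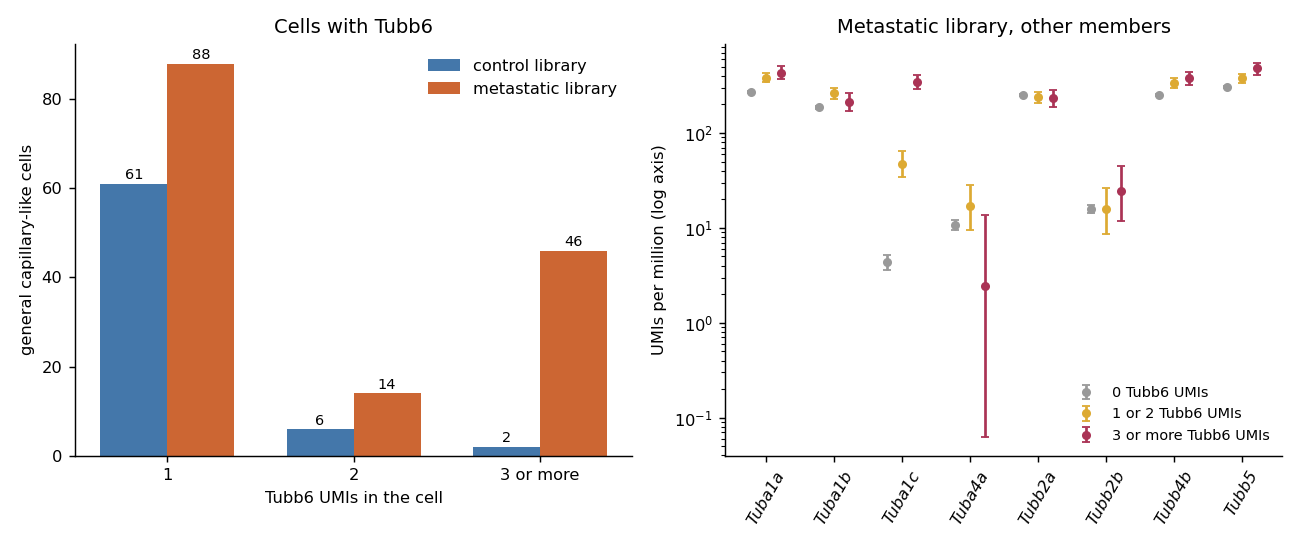
Left, number of gCap-like cells with 1, 2 or 3 or more Tubb6 UMIs in the control (blue) and metastatic (orange) library, 2 and 46 cells in the last pair of bars; right, CPM (log axis, 95% counting intervals) of the other 8 isotypes in metastatic gCap-like cells by their Tubb6 UMIs. Tuba1c goes from 4.34 to 47.7 and 346 CPM with 0, 1 or 2, and 3 or more Tubb6 UMIs.

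Tuba1c was the member that accompanied Tubb6. In metastatic gCap-like cells it had 4.34 CPM (3.62–5.17) where Tubb6 was absent, 47.7 (34.4–64.4) with 1 or 2 Tubb6 UMIs and 346 (291–408) with 3 or more. After thinning to 2000 UMIs, 16 of 56 metastatic cells with Tubb6 also had Tuba1c, or 28.6% (17.3–42.2), against 50 of 4405 without Tubb6, or 1.14% (0.844–1.49). In the control library the counts were 0 of 20 and 23 of 4927. Over all UMIs, Tuba1c was higher with Tubb6 in control gCap-like cells as well. It had 2.67 CPM (2.13–3.30) without Tubb6 and 29.0 (16.6–47.1) with 1 or 2 Tubb6 UMIs. Monocyte or macrophage markers summed to 308 and 2411 CPM in these control cells. Other members differed less between the metastatic cells with and without Tubb6. Tuba1a had 270 and 435 CPM and Tubb5 307 and 479 CPM in cells with 0 and with 3 or more Tubb6 UMIs, while Tubb2a had 251 and 235 CPM and Tuba4a 10.8 and 2.47 CPM. Division genes were also at 10.4 and 296 CPM, with 1 of the 46 cells carrying 2 or more of them.

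Among genes with at least 40 UMIs in the 46 cells and 10 in the cells without Tubb6, a rule set after the values were seen, the largest ratios were those of Sox9, a transcription factor of cartilage and progenitor cells, at 151 against 0.72 CPM, and Fosl1, an AP-1 subunit, at 183 against 1.03 CPM. Among the next were the protease Adamts4, the metallothionein Mt2 and the leukocyte adhesion molecule Sele (287 and 2.62 CPM). Tuba1c had rank 7 among these genes. Inhbb, the activin beta subunit that the study lists as a reactive capillary marker, had 608 and 22.6 CPM. Other such markers did not all go this way. Adamts9 had 225 and 58.2 CPM and Bcl3 173 and 40.9 CPM. Pim3 had 306 and 259 CPM and Osmr 104 and 80.6 CPM, each with overlapping intervals. Tmem252, at 96.3 and 201 CPM, and Scarb1, at 109 and 154 CPM, were lower in the 46 cells. The 20 genes of the actin cytoskeleton list summed to 48690 CPM in the 46 cells against 13711 CPM in cells without Tubb6, and the folding genes of tubulin to 3234 against 1991 CPM. The 2 control cells with 3 or more Tubb6 UMIs were led by the macrophage genes Ear1, Ear2 and Ctss, so the control library held no group of cells to set beside the 46.

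The difference of the major isotypes did not rest on these cells. Without any cell that held a Tubb6 UMI, the log2 ratios in gCap-like cells were 0.38 for Tuba1a, 0.44 for Tuba1b, 0.36 for Tubb2a, 0.19 for Tubb5 and 0.24 for the summed members. That of Tuba1c was 0.70 (0.29–1.12), from 84 and 126 UMIs. Leaving out cells by Tubb6 removes the higher cells of both libraries and was chosen after the values were seen.

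The study describes reactive capillaries by a set of genes, of which 7 were used here (Pim3, Bcl3, Inhbb, Osmr, Tmem252, Adamts9 and Scarb1), and the isotypes were set against the number detected in each gCap-like cell at 2000 UMIs. Between the libraries, 6 of the 7 passed the filter in gCap-like cells, all 6 were higher and 1, Bcl3, by 1.5-fold, at 16.1 and 43.5 CPM. Over all genes that passed, 54.3% were higher and 1.46% by 1.5-fold. Inhbb did not pass, but it had 5.24 and 22.6 CPM in control and metastatic gCap-like cells without Tubb6. The study chose the list on several experiments that include these libraries, so their values are no independent evidence of its direction. It also reports all 7 as higher by RT-qPCR in lung endothelial cells isolated 6 h after the injection. In the control library the summed members differed by less than counting error, with 1129.9 (1095–1166), 1115 (1082–1148), 1116 (1068–1166) and 1123 (1040–1212) CPM with 0, 1, 2 and 3 or more markers. In the metastatic library they had 1295 (1255–1336), 1368 (1329–1408), 1361 (1304–1421) and 1493 (1416–1573) CPM. Tubb6 had 5.51, 9.84, 16.9 and 23.3 CPM over the 4 groups of metastatic cells and between 1.72 and 3.38 CPM over those of the control library. Tuba1b had 182 (167–197), 195, 206 and 221 (192–253) CPM and Tubb2a 250.2, 251, 232 and 223 CPM in metastatic cells, and in both genes the intervals of the first and the last group overlapped. Those of Tubb4b were apart, at 248.9 (231.6–267.1) CPM with 0 and 330.9 (295.2–369.6) CPM with 3 or more markers in metastatic cells. This was not kept at 1000 UMIs per cell, where Tubb4b had 251.9 (232.5–272.6) and 182.4 (123.9–258.8) CPM, with overlapping intervals. The groups held 296 control and 473 metastatic cells with 3 or more markers. At 1000 UMIs per cell, where 87 control and 170 metastatic cells had 3 or more markers, the summed members had 1322 (1091–1587) CPM in them against 1122 (1083–1161) in control cells with 0 markers, and 1382 (1211–1571) against 1263 (1219–1309) in metastatic cells, and the intervals of both pairs overlapped. Metastatic cells with 0 markers were above control cells with 3 or more at 2000 UMIs but not at 1000.

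**Figure D5:**
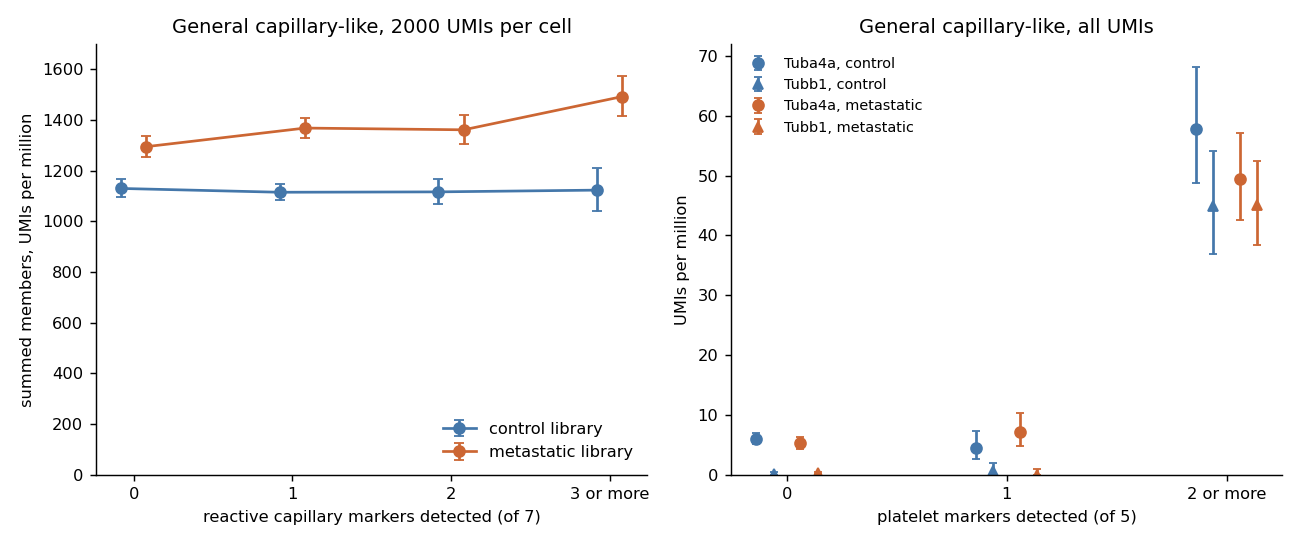
Left, summed tubulin members (CPM at 2000 UMIs per cell) in gCap-like cells by the number of reactive capillary markers detected, from 1295 to 1493 CPM in the metastatic library (orange) and from 1115 to 1129.9 CPM in the control library (blue); right, Tuba4a (circles) and Tubb1 (triangles) by the number of platelet markers, highest with 2 or more. Bars are 95% counting intervals.

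Tuba4a was higher in cells with platelet markers and in cells with monocyte or macrophage markers, and these sets of cells were not separated. Gp9, Pf4, Ppbp, Itga2b and Treml1 served as platelet markers, and 2 or more were detected in 6.91% (6.23–7.65) of control and 10.9% (9.99–11.8) of metastatic gCap-like cells. In those cells Tuba4a had 57.8 (48.7–68.1) and 49.4 (42.5–57.2) CPM, against 6.02 (5.12–7.04) and 5.24 (4.34–6.27) CPM in cells with none. Tubb1, the beta-tubulin of platelets and no member, had 44.9 and 45.1 CPM with 2 or more markers and 0.15 and 0.22 CPM with none. In cells with 2 or more monocyte or macrophage markers Tuba4a had 101 (83.5–120.2) and 83.8 (70.4–99.0) CPM, against 5.37 and 4.78 CPM with none, and Tubb1 had 58.2 and 74.1 CPM. Monocyte or macrophage-like cells outside the endothelial classes had 0 Tubb1 UMIs in both libraries, with Tuba4a at 66.9 and 77.1 CPM. Tuba1c was also higher with 2 or more platelet markers, at 9.70 and 18.6 CPM, than with none, at 2.80 and 8.76 CPM. Without the cells with a platelet marker the log2 ratio of Tuba4a in gCap-like cells was -0.20, and without those with 2 markers of any other cell type it was -0.25, in place of 0.14. The log2 ratio of the other members kept its sign in gCap-like cells in both alternatives, and the summed members of cells with no platelet marker had 1091 and 1323 CPM.

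The other tubulin genes were scarcely detected. Of 11 (Tuba3a, Tuba3b, Tuba8, Tubal3, Tubb1, Tubb3, Tubb4a, Tubg1, Tubg2, Tubd1 and Tube1), 0 passed the filter in gCap-like cells. They summed to 28.8 and 32.1 CPM there, most of it from Tubg1, the gamma-tubulin that seeds microtubules, with 18.6 (17.2–20.2) and 20.5 (19.0–22.2) CPM. Tubb3, the neuronal beta-tubulin, had 1 and 3 UMIs. The 9 members thus held nearly all alpha- and beta-tubulin RNA that was counted.

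Genes that fold, nucleate, modify or bind tubulin had median log2 ratios between -0.07 and 0.09 in gCap-like cells, nearer to that of all genes (0.02) than the isotypes. Of all 6368 genes that passed the filter there, 54.3% were higher, 5.81% by 25% and 1.46% by 1.5-fold, and 1.11% were lower by 1.5-fold. Of the folding and assembly list, 19 of 20 genes were found in the files and 18 passed the filter. Of these 16 were higher, 0 of them by 25%, with a median log2 ratio of 0.09. The highest were the cofactor Tbcb at 58.3 and 72.5 CPM (log2 ratio 0.31) and the chaperonin subunit Cct3 at 86.6 and 104 CPM (0.26), and Pfdn5 was lower at 412 and 401 CPM (-0.04). Of the autoregulation and nucleation list 7 of 10 passed, 1 was higher and the median was -0.07. It included Ttc5, which reads excess tubulin and triggers decay of tubulin mRNA, at 40.2 and 39.1 CPM.

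Of the modifying enzymes 5 of 16 passed and 4 were higher, 0 of them by 25%, but Ttll7, a ligase that adds glutamate chains to beta-tubulin, was lower by 1.5-fold. It had 322 (315–328) and 213 (208–218) CPM in gCap-like cells, a log2 ratio of -0.59. Ttll7 was also lower in aCap-like (319 and 254 CPM), vein-like (161 and 76.2 CPM) and artery-like cells (355 and 238 CPM). Of the microtubule binding proteins 17 of 26 passed and 13 were higher, with a median of 0.07. Kif2a, a kinesin that takes microtubule ends apart, had 143 and 192 CPM (0.43), and Stmn1, which binds free tubulin dimers, 345 and 388 CPM (0.17). Clip1, a protein of growing plus ends, was lower at 244 and 166 CPM (-0.56). All 20 actin cytoskeleton genes passed, with a median of 0.20. Of these 17 were higher, against 54.3% of all genes, and 2 by 1.5-fold, against 1.46%. The 2 were Actn1 at 26.4 and 46.3 CPM (0.81) and Actg1 at 692 and 1055 CPM (0.61), and Actb had 1866 and 2610 CPM (0.48). Of the 10 cell division genes 0 passed, and they summed to 13.6 and 19.4 CPM.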

How the data were processed

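The deposited files were raw 10x Genomics count matrices, 1 per library, which the authors made by aligning reads to mm10 and counting UMIs per gene and barcode with Cell Ranger (3.1.0 per the file headers). The values are counts with no normalization. Seurat is named in the submitters' processing notes and its output was not used here. Barcodes with 1000 to 5000 genes and under 20% mitochondrial UMIs were kept, and a class needed 2 markers: Ednrb, Fibin or Tbx2 (aerocyte), Slc6a2, Car8 or Bst1 (vein), Gja5, Bmx or Fbln5 (artery), or Gpihbp1, Aplnr, Kit or Lpl (general capillary). A general capillary-like cell met none of the other class rules but could hold 1 marker of another class. UMIs were summed per library and class and divided by the class total (CPM). Levels have exact Poisson intervals, shares Clopper-Pearson intervals and log2 ratios exact conditional binomial intervals, all at 95% and for counting error only. No test was possible with 1 library per group. No doublet caller was run. Leaving out the deepest 5% of barcodes, or those with 2 markers of another cell type, stood in for it. The script was tested on simulated counts.

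The members and all gene lists were chosen with earlier results of these data known. Besides the members, the genes named were taken from those with the 4 highest and 2 lowest ratios of each list and the 5 genes most like the summed members. Tubg1, Tubb3, the genes of the cells with 3 or more Tubb6 UMIs and the promoters shown were chosen after their values were seen. Gene positions and read sharing were taken from GENCODE M21 and promoter sequences from RefSeq. Alternatives changed the scaling (edgeR 4.0.16 TMM in R 4.3.3, median of ratios), the cell filter, the class rule, the depth, the filter on low counts and the RNA of other cells. Python 3.11.15 with numpy 2.4.6, scipy 1.17.1 and pandas 2.3.3 was used.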

Additional observations from a re-analysis of the deposited data

Results flagged for a closer look

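Tubb4b differed in direction between the capillary classes: its log2 ratio of the metastatic to the control library was -0.062 in general capillary-like and 0.24 in aerocyte-like cells. The intervals of these ratios lay on opposite sides of 0, but with free RNA subtracted the ratio in general capillary-like cells was 0.33 and the directions were the same. The free RNA profiles held 29 and 21 UMIs of the members, and the estimated share differed widely between classes of 1 library. That subtraction therefore cannot decide the direction. The difference between the classes was not tested, and each class had 1 library per group.

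Cells that met no class rule, 394 in the control and 466 in the metastatic library, were outside the comparisons, and their summed members were higher in the metastatic library while 5 of the 9 members were lower. Their log2 ratios were 0.12 for the summed members, 0.42 for Tuba1a, 0.35 for Tuba1b, 0.68 for Tuba1c and 1.72 for Tubb6. Those of the other members were -0.31 (-0.47 to -0.16) for Tubb2a, -0.40 for Tubb2b, -0.09 for Tuba4a, -0.06 for Tubb5 and -0.02 for Tubb4b, and the last 4 intervals held 0. Of these cells 6 and 26 held 3 or more Tubb6 UMIs, of which 2 and 20 also had at least 3 endothelial markers.

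Barcodes with at least 300 but under 1000 genes, 2267 and 2565, were likewise outside the comparisons. Their log2 ratios were 0.24 for the summed members, 0.25 for Tuba1a, 0.58 for Tuba1b, 0.37 for Tuba1c, 0.38 for Tubb2a and 0.61 for Tubb2b. Tubb5 had 0.13, Tubb4b 0.05 and Tuba4a -0.03. Tubb6 had 1 UMI in the control and 42 in the metastatic barcodes, a log2 ratio of 5.32 (2.76–10.66).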

How the results depend on the processing

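For the 46 results on single members, their detection and the reactive markers, 594 values were computed under up to 21 alternatives: 558 lay within the error of the reported value, 34 lay outside it, and 2 changed a sign that the reported interval had set. The log2 ratio of the summed members in general capillary-like cells (0.26) was 0.24 with TMM scaling, 0.24 as a mean of per-cell fractions, 0.24 without cells holding a Tubb6 UMI and 0.61 after subtraction of free RNA. In aerocyte-like cells (0.33) it was 0.29 with TMM, 0.38 at 2000 UMIs per cell and 0.36 with free RNA subtracted, and in vein-like cells (0.21) it was 0.34 when 3 class markers were asked. In artery-like cells (0.51) all alternatives run gave 0.38 to 0.64. The count of members past 1.5-fold in general capillary-like cells (0) was 3 with free RNA subtracted (14.8% of genes higher and 13.3% lower), 2 with no filter on low counts (10.8% and 8.82%), 2 with at least 100 UMIs and no CPM minimum (3.38% and 1.8%), and 3 at the threshold of 25% (5.81% and 3.69%), the last 3 settings by admitting more genes or a smaller fold. Tuba4a in vein-like cells went from 1.15 to -0.30 at 2000 UMIs per cell and Tubb4b in general capillary-like cells from -0.062 to 0.33 with free RNA subtracted, and the cause was not tested. The alternatives without platelet markers, without melanoma markers, without Tubb6 and with at least 100 UMIs were chosen after seeing the data. No paired analysis was possible because each group held 1 library. Tuba1c, Tuba4a, Tubb2b and Tubb6 had few UMIs outside the general capillary-like cells, so differences of the size of the major isotypes were not detectable there.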

Other observations

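Cells of other types, called by 3 markers and at most 1 endothelial marker, showed other isotype profiles. The 16 control and 21 metastatic platelet-like barcodes had the most tubulin RNA, with the 9 members at 7081 (6419–7793) and 6031 (5548–6544) CPM. Tubb2a had 3127 and 2335 CPM there, Tubb4b 1369 and 1120.3 CPM and Tuba4a 1115 and 1162 CPM, while Tubb6 had 0 UMIs in both libraries. The 42 and 47 monocyte or macrophage-like cells had 771 (690–858) and 805 (732–883) CPM of the members, with Tubb6 at 50.8 (31.8–76.8) and 48.4 (31.9–70.4) CPM and Tubb2a at only 20.8 and 16.1 CPM.

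The few general capillary-like cells with 2 or more cell division genes, 11 in the control and 20 in the metastatic library, had 1759 (1506–2042) and 2118 (1927–2324) CPM of the members.

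Over the 8 sums of 4 classes in 2 libraries, the genes whose log2 CPM was most like that of the summed members were Eif4e2 and Ifngr2 (Pearson r of 0.986 for each), Cacybp (0.979), Csnk2a2 (0.977) and Lyn (0.976). Of the 3671 genes compared, 3.43% had an r above 0.9. The 8 points share 2 libraries and their depth.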
